A study of Mus musculus with 16 samples.

Results

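Transcripts of 8 genes of cholesterol synthesis and its control were followed in antigen-binding, memory-phenotype B cells of mice homozygous or heterozygous for the Zfp318ZSDAT allele. The genes were chosen by symbol, with earlier results of these data known. They were Hmgcs1, Idi1, Fdft1, Sqle, Lss and Cyp51, which encode enzymes of the pathway, and Srebf2 and Insig1, which control it. All 8 were found among the 22675 genes of the joined count tables, and all 8 passed the filter on low counts in each comparison. None of them encodes an uptake receptor, and uptake was followed through a separate list of genes. Cells make cholesterol from acetyl-CoA through mevalonate, isoprenoids, squalene and lanosterol. SREBP-2, the product of Srebf2, is held in the endoplasmic reticulum by SCAP and INSIG proteins when sterols are plentiful, and is released to switch on the enzyme genes when sterols fall. In lymphocytes this program is known to rise with activation and growth, when new membrane is made. In these libraries Sqle was lower in homozygous cells of both sorted populations, Cyp51 was lower in the tdTomato-positive homozygous cells, and none of the 8 was called higher in any comparison. Srebf2 was also called lower in the tdTomato-positive homozygous cells, a call that held in 10 of 27 alternatives.

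The cells came from spleens of C57BL/6 mice given NP-OVA with LPS and alum 7 days earlier. They were sorted as NIP-binding B220+ cells that carried CD38 and lacked IgD, CD138, which marks plasma cells, and GL7 and FAS, which mark germinal center cells. The labels do not say what tdTomato reports. KOTP and KOTN were the tdTomato-positive and tdTomato-negative cells of Zfp318ZSDAT/ZSDAT mice. HetTP and HetTN were the tdTomato-positive and tdTomato-negative cells of Zfp318ZSDAT/+ mice. All 4 groups carried AID-Cre, a Cre recombinase driven by the gene for activation-induced deaminase, and the NP-binding B1-8hi heavy chain with GFP, so no group was free of these alleles. Each group had 4 libraries, each of about 1000 cells, and the labels do not say whether these came from separate animals. The p-values therefore measure the spread between these libraries.

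Total counts were 7748787 to 15742445 per library. Zfp318 stood at 0.446 to 5.42 raw counts per 1000000 of the library total (CPM) in homozygous libraries and 78.8 to 152 in heterozygous ones, so the labelled genotypes did not overlap. Genotype coincided with the deposited table, so a difference of batch or counting cannot be told apart from genotype. The heterozygous libraries varied more: edgeR put the biological coefficient of variation at 0.2 for the homozygous and 0.845 for the heterozygous libraries, and 11434 to 11684 genes were detected per homozygous library, against 9662 to 10593 per heterozygous library. B cell transcripts were abundant in every library, with Cd79a at 5411 to 6939 CPM in homozygous and 3817 to 6766 in heterozygous cells. Sdc1, which encodes CD138, reached at most 0.741 CPM in homozygous libraries and 18.5 in a heterozygous one. Cd4 was at 0 in all libraries, whereas Trac ranged from 0 to 0.216 in homozygous and from 99.4 to 464 CPM in heterozygous cells.

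Per kilobase of coding length, Lss had the lowest mean level in each group, and Hmgcs1, Cyp51, Sqle, Srebf2 and Fdft1 the highest in all but HetTN cells, where Hmgcs1 stood lower. In KOTP cells the order began with Fdft1 at 19.4 ± 4.11, Srebf2 at 15.4 ± 2.09, Cyp51 at 10.5 ± 3.19 and Hmgcs1 at 10.1 ± 2.66 CPM per kilobase of coding sequence (SD, n = 4). Sqle followed at 7.91 ± 2.22, Insig1 at 6.48 ± 2.52, Idi1 at 4.46 ± 2.51 and Lss at 1.90 ± 0.385 CPM per kilobase. In HetTP cells the order began with Cyp51 at 38.1 ± 9.63, Hmgcs1 at 35.3 ± 22.6 and Sqle at 34.2 ± 19.0 CPM per kilobase, ahead of Srebf2 at 28.3 ± 4.53 and Fdft1 at 26.1 ± 12.1. Neighbours among these 5 in the HetTP order differed by less than the larger of their SDs. In the KOTP order only the steps between Srebf2 and Cyp51 and between Idi1 and Lss exceeded it. The summed CPM of the 8 genes was 130 to 144 in KOTP and 129 to 144 in KOTN libraries, against 243 to 435 in HetTP and 182 to 258 in HetTN libraries. Neither homozygous group overlapped its heterozygous counterpart in this sum, to which Srebf2 gave the largest mean level in each group.

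**Figure D1:**
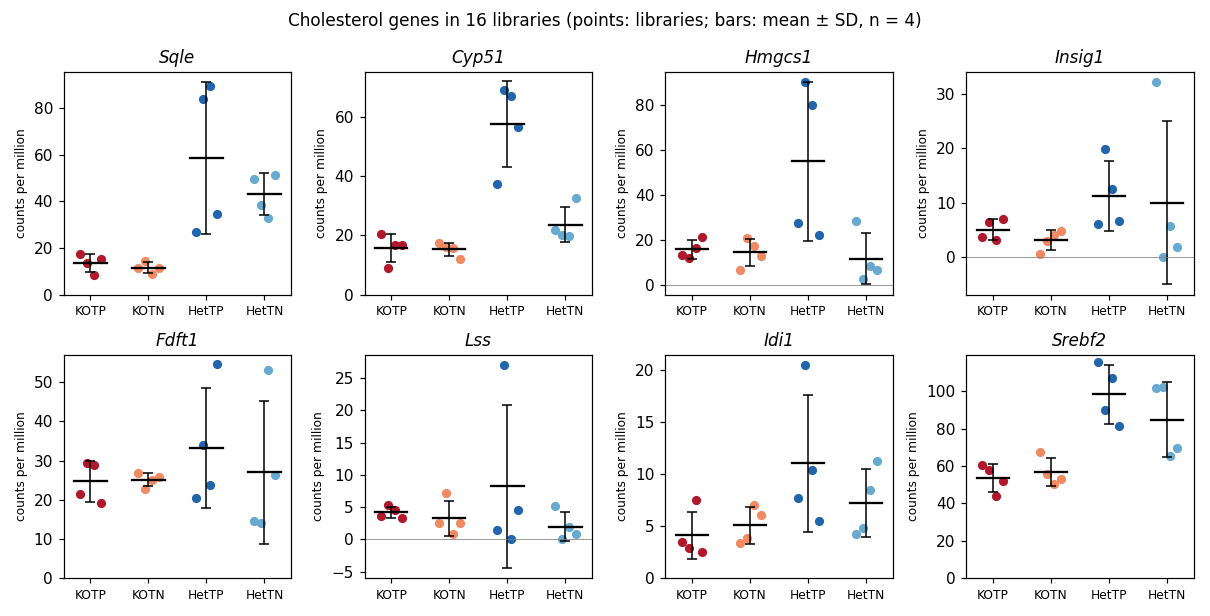
Level of each gene (CPM) in every library, by group. Points are libraries and bars are the mean ± SD (n = 4). Sqle in homozygous libraries stayed at or below 17.3 CPM, under every heterozygous library, while Fdft1, Lss, Insig1 and Idi1 overlapped between the genotypes.

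Sqle (ENSMUSG00000022351, GRCm38 chromosome 15, 59315077 to 59331192, plus strand) encodes squalene epoxidase, the enzyme that oxidises squalene, a rate-controlling step of the pathway. Its level was 17.3, 13.5, 8.33 and 15.1 CPM in KOTP libraries, against 26.7, 84.0, 89.7 and 34.6 CPM in HetTP libraries. It was 11.2, 14.5, 8.81 and 11.4 CPM in KOTN libraries, against 49.8, 38.4, 33.1 and 51.4 CPM in HetTN libraries. All 8 homozygous libraries lay below all 8 heterozygous ones. In edgeR's quasi-likelihood test with adjustment over all genes tested, Sqle was lower in homozygous cells in both populations, with a log2 fold change of -1.89 (adjusted p = 0.00327, SE 0.39) for KOTP against HetTP and -1.82 (adjusted p = 0.00574, SE 0.39) for KOTN against HetTN. No other gene of the 8 was called in both. In bulk libraries, fewer cells of a type and less RNA per cell cannot be told apart. Among alternatives, the KOTN against HetTN call held in all 26. The KOTP against HetTP call held in 23 of 27 and was lost when the 8 libraries were compared alone without KOTP library 2 (adjusted p = 0.0634), 3 (0.0681) or 4 (0.0563), and without HetTP libraries 2 and 3 together (0.126).

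Cyp51 (ENSMUSG00000001467, GRCm38 chromosome 5, 4081145 to 4104746, minus strand) encodes lanosterol 14-alpha-demethylase, which acts on the first sterol of the pathway. It stood at 20.6, 9.13, 16.9 and 16.6 CPM in KOTP libraries, against 37.4, 69.0, 67.2 and 56.6 CPM in HetTP libraries. It stood at 17.4, 16, 15.6 and 12.2 CPM in KOTN libraries, against 21.9, 20.3, 19.8 and 32.5 CPM in HetTN libraries. Both pairs of groups were without overlap, but the gap was wide only among tdTomato-positive cells. Cyp51 was called lower in KOTP cells, with a log2 fold change of -1.64 (adjusted p = 0.00264, SE 0.33), and not in KOTN cells, where it was -0.54 (95% interval -1.22 to 0.13, adjusted p = 0.343).

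Srebf2 (ENSMUSG00000022463, GRCm38 chromosome 15, 82147181 to 82205379, plus strand) encodes SREBP-2 itself. Its level was 60.5, 57.8, 44.1 and 51.9 CPM in KOTP libraries, against 116, 89.9, 107 and 81.3 CPM in HetTP libraries, with no overlap. In tdTomato-negative cells it was 67.4, 55.5, 50.1 and 53.3 CPM in KOTN libraries, against 102, 102, 65.3 and 69.8 CPM in HetTN libraries, where the highest homozygous library passed the lowest heterozygous one. The log2 fold change was -0.65 (adjusted p = 0.0401, SE 0.20) for KOTP against HetTP, a fall that passed the threshold narrowly, and -0.49 (adjusted p = 0.131, SE 0.20) for KOTN against HetTN. The call was lost without HetTP library 1 (adjusted p = 0.0966) or 3 (0.0883), and without KOTP library 1 (0.0683), 2 (0.0778), 3 (0.151) or 4 (0.0992).

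Hmgcs1 (ENSMUSG00000093930, GRCm38 chromosome 13, 119690379 to 119708260, plus strand) encodes the cytosolic HMG-CoA synthase at the entry to the pathway. Its level was 13.3, 12.1, 16.3 and 21.4 CPM in KOTP libraries, against 27.5, 90.3, 80.2 and 22.1 CPM in HetTP libraries. It was 6.58, 20.8, 17.5 and 13.1 CPM in KOTN libraries, against 28.4, 2.75, 8.62 and 6.87 CPM in HetTN libraries. The tdTomato-positive groups did not overlap in CPM, but only narrowly, with KOTP library 4 at 21.4 and HetTP library 4 at 22.1. HetTP libraries 2 and 3 stood far above libraries 1 and 4, and Hmgcs1 did not pass in either comparison. Its log2 fold change was -1.57 (95% interval -2.81 to -0.34, adjusted p = 0.106) among tdTomato-positive and 0.46 (95% interval -0.76 to 1.68, adjusted p = 0.722) among tdTomato-negative cells. With DESeq2 the first passed (-1.61, adjusted p = 0.0478).

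The start-site regions of these genes were read for letters that SREBP-2 and its partners are known to bind. Windows of up to 250 bases before the RefSeq start (GRCm38.p6) were searched on both strands for TCACNCCAC, the core of the sterol regulatory element to which SREBPs bind, for CCAAT, the box of NF-Y, and for GGGCGG, the box of Sp1. NF-Y and Sp1 are the usual partners of SREBPs. A variant of the element, TCACCNCA, with the open base moved and the last base dropped, was added after the sequences were seen. It overlaps TCACNCCAC where both match. Promoters of 6 of the 8 genes were found, and Sqle and Fdft1 were not among them. Those of Hmgcs1, Cyp51 and Srebf2 are shown because they hold the variant, with matches in capitals, up to the base before the earlier of the RefSeq and GENCODE starts. They cover chr13:119690101-119690350, plus strand, chr5:4104747-4104947, minus strand, and chr15:82147019-82147180, plus strand.
Hmgcs1: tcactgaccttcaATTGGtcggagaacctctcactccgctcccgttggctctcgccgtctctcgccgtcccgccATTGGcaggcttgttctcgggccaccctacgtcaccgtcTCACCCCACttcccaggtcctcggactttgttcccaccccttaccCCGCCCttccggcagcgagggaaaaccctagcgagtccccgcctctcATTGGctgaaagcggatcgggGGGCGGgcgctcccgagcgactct
Cyp51: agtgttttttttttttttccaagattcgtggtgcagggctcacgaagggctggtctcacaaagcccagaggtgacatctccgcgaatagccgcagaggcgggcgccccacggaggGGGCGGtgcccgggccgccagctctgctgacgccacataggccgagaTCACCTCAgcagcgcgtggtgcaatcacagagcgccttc
Srebf2: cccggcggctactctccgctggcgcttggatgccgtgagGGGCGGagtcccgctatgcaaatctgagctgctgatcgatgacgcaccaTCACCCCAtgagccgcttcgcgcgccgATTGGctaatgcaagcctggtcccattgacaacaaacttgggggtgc

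The NF-Y box of Cyp51, 29 bases before its RefSeq start, lies outside the stretch shown, as do the Sp1 boxes of Srebf2 at 79, 52 and 34 bases. The core TCACNCCAC was present in Hmgcs1 alone among the 6, at 137 bases before the start, and in 1.05% of all 32851 promoters searched. The variant TCACCNCA lay 137 bases before the start of Hmgcs1, 88 before that of Cyp51 and 162 before that of Srebf2, and was present in 3.61% of all promoters. Because the variant was chosen after these sequences were seen, its matches set beside that share are not a test. All 6 windows held CCAAT or its reverse complement ATTGG (33.8% of all promoters) and GGGCGG or its reverse complement CCGCCC (32.7%). Insig1, Lss and Idi1 held neither form of the element in these windows. A match is a description of the letters, and no binding was measured.

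Insig1 (ENSMUSG00000045294, GRCm38 chromosome 5, 28071363 to 28078662, plus strand) encodes the sterol-sensitive retention factor of SCAP and is itself a target of SREBP-2. Its level was 3.70, 6.51, 3.03 and 6.91 CPM in KOTP libraries, against 5.98, 19.9, 12.5 and 6.63 CPM in HetTP libraries. It was 0.516, 3.01, 3.97 and 4.79 CPM in KOTN libraries, against 32.2, 0, 5.70 and 1.91 CPM in HetTN libraries. The HetTN values span from no count, which allows up to 0.258 CPM at that depth (3 counts, counting error only), to the highest level of any library. The log2 fold changes were -0.92 (95% interval -3.29 to 1.44, adjusted p = 0.761) among tdTomato-positive and -1.51 (95% interval -3.92 to 0.90, adjusted p = 0.495) among tdTomato-negative cells, so that neither a large fall nor a rise was outside the interval.

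Idi1 (ENSMUSG00000058258, GRCm38 chromosome 13, 8885501 to 8892451, plus strand) encodes the isomerase of isopentenyl diphosphate, the isoprenoid unit. Its level was 3.46, 2.88, 7.47 and 2.51 CPM in KOTP libraries, against 7.66, 20.5, 10.4 and 5.50 CPM in HetTP libraries. In tdTomato-negative cells it ranged over 3.36 to 6.98 CPM in KOTN and 4.20 to 11.2 CPM in HetTN libraries. All groups overlapped, with log2 fold changes of -1.21 (95% interval -2.72 to 0.30, adjusted p = 0.384) among tdTomato-positive and -0.44 (95% interval -1.93 to 1.04, adjusted p = 0.79) among tdTomato-negative cells.

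Fdft1 (ENSMUSG00000021273, GRCm38 chromosome 14, 63145150 to 63179578, minus strand) encodes squalene synthase, the first step committed to sterols and the one just before Sqle. Its level was 21.4, 29.4, 28.9 and 19.1 CPM in KOTP libraries, against 20.5, 34.0, 23.8 and 54.7 CPM in HetTP libraries. It was 26.7, 22.8, 24.9 and 25.8 CPM in KOTN libraries, against 14.6, 14.1, 53.1 and 26.2 CPM in HetTN libraries. The groups overlapped, with log2 fold changes of -0.20 (95% interval -1.07 to 0.66, adjusted p = 0.878) among tdTomato-positive and -0.04 (95% interval -0.90 to 0.82, adjusted p = 0.978) among tdTomato-negative cells. The difference in response between Fdft1 and Sqle was not itself tested.

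Lss (ENSMUSG00000033105, GRCm38 chromosome 10, 76531588 to 76557138, plus strand) encodes lanosterol synthase, which closes the sterol rings. Its level was 3.70, 5.26, 4.55 and 3.35 CPM in KOTP libraries, against 1.49, 27.0, 0 and 4.52 CPM in HetTP libraries. It was 2.58, 7.13, 0.859 and 2.57 CPM in KOTN libraries, against 5.19, 0, 1.94 and 0.783 CPM in HetTN libraries. A single HetTP library carried most of the counts of its group, and the libraries without a count allow up to 0.191 CPM in HetTP and 0.258 CPM in HetTN. The log2 fold changes, -0.74 (95% interval -3.69 to 2.22, adjusted p = 0.87) among tdTomato-positive and 0.89 (95% interval -2.09 to 3.87, adjusted p = 0.79) among tdTomato-negative cells, were the least precise of the 8.

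In the comparison of KOTP with HetTP cells, 3 of the 8 genes were called lower and none higher, where 10.3% of 10687 genes tested were called, 5.06% higher and 5.22% lower. The median log2 fold change was -1.07 over the 8 genes and -0.03 over all genes tested, and all 8 values were below 0. The 8 were chosen with earlier results of these data known. Their counts, medians and shared direction, in each comparison, are therefore a description and not an independent test. Lss was above 0 in 6 of 27 alternatives and Fdft1 in 2. Sqle, Cyp51, Srebf2 and, narrowly, Hmgcs1 had no overlap between the groups in CPM without TMM. The same held for 13.8% of all genes in that direction and 7.06% in the other. In KOTN against HetTN cells, 1 of the 8 was called lower and none higher, where 10.5% of genes were called, 5.61% higher and 4.88% lower. The median was -0.47 over the 8 and 0.00 over all genes, and Sqle and Cyp51 had no overlap, as had 8.5% of all genes in that direction and 10.4% in the other. The genotype comparisons share no libraries, but share 1 estimate of the spread.

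HetTP libraries 2 and 3 stood above libraries 1 and 4 for Sqle, Cyp51, Hmgcs1, Insig1 and Idi1. Fdft1 was highest in HetTP library 4 and Srebf2 in HetTP library 1. With both libraries left out, a choice made after the values were seen, Cyp51 alone of the 8 was called in KOTP against HetTP cells (-1.33, adjusted p = 0.0406), Sqle was at -0.94 (adjusted p = 0.126) and Hmgcs1 at -0.40 (adjusted p = 0.812). The summed CPM of 8 proliferation genes was 1907 and 1398 in libraries 2 and 3, against 872 and 1303 in libraries 1 and 4. Germinal center genes were at 900 and 754 in libraries 2 and 3, against 621 and 510 in libraries 1 and 4. Plasma cell genes were at 359 and 317, against 266 and 260. Genes of oxysterol metabolism and its receptor were at 180 and 193, against 176 and 138. Some other lists did not split so. T cell markers were at 334 and 724 in libraries 2 and 3, against 531 and 226 in libraries 1 and 4. Macrophage markers were at 120 and 605, against 633 and 291. Whether any of these lists goes with the cholesterol genes was not tested.

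**Figure D2:**
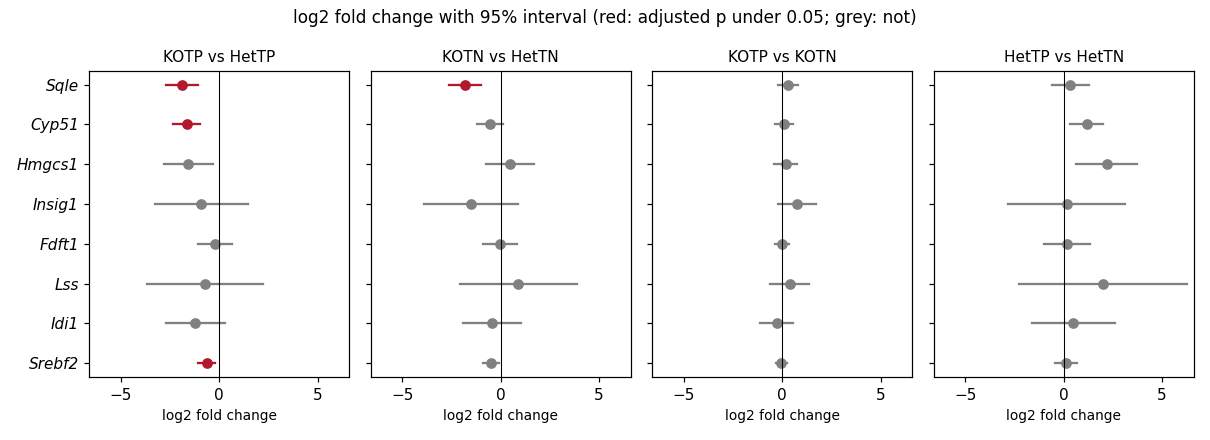
Log2 fold change of each gene in 4 comparisons, the first-named group over the second, with the 95% interval of the edgeR fit. Red marks an adjusted p under 0.05 over all genes tested: Sqle, Cyp51 and Srebf2 in KOTP against HetTP, and Sqle in KOTN against HetTN.

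Between the sorted populations of 1 genotype, none of the 8 genes was called. In homozygous cells, KOTP against KOTN, none of the 8 was called by edgeR, DESeq2 or limma voom, and none had an unadjusted p under 0.05, against 12% of all genes, where 2.37% of 9974 genes tested were called, 0.892% higher and 1.47% lower. The groups overlapped for each of the 8, while 4.68% of all genes were lower and 2.53% higher without overlap, and the summed level was 137 ± 5.88 CPM in KOTP and 134 ± 6.95 CPM in KOTN cells (SD, n = 4). The intervals were narrow for Fdft1, at 0.00 (95% interval -0.36 to 0.36, adjusted p = 0.998), Srebf2, at -0.05 (95% interval -0.32 to 0.22, adjusted p = 0.941), Cyp51, at 0.08 (95% interval -0.39 to 0.55, adjusted p = 0.944), and Sqle, at 0.27 (95% interval -0.24 to 0.78, adjusted p = 0.759). Hmgcs1 was at 0.17 (95% interval -0.40 to 0.74, adjusted p = 0.894) and Idi1 at -0.28 (95% interval -1.12 to 0.55, adjusted p = 0.877). Lss, at 0.38 (95% interval -0.62 to 1.38, adjusted p = 0.853), and Insig1, at 0.76 (95% interval -0.22 to 1.74, adjusted p = 0.601), were less precise. In the same comparison 4 of 8 proliferation genes and 3 of 6 germinal center genes were called lower.

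In heterozygous cells, HetTP against HetTN, no gene of 9703 tested was called by edgeR or limma voom (0% of genes), 487 (5.02%) had an unadjusted p under 0.05, and DESeq2 called 38, none of them among the 8. Of the 8, Cyp51 (unadjusted p = 0.00947 in edgeR's test) and Hmgcs1 (0.00894) were under 0.05 before adjustment. All 8 log2 fold changes were above 0, with a median of 0.41 against 0.02 over all genes. Cyp51 ranged over 37.4 to 69.0 CPM in HetTP and 19.8 to 32.5 CPM in HetTN libraries without overlap, as did 3.69% of all genes in that direction and 1.35% in the other. Its log2 fold change was 1.16 (adjusted p = 0.84, SE 0.38). Hmgcs1 averaged 55.0 ± 35.2 CPM in HetTP and 11.7 ± 11.4 CPM in HetTN cells (SD, n = 4), with a log2 fold change of 2.18 (adjusted p = 0.84, SE 0.71) and overlapping libraries. Sqle, at 0.34 (95% interval -0.60 to 1.27, adjusted p = 1), and Srebf2, at 0.10 (95% interval -0.46 to 0.67, adjusted p = 1), had overlapping groups. Fdft1 was at 0.17 (95% interval -1.02 to 1.35, adjusted p = 1), Idi1 at 0.48 (95% interval -1.63 to 2.59, adjusted p = 1), Insig1 at 0.15 (95% interval -2.83 to 3.12, adjusted p = 1) and Lss at 2.00 (95% interval -2.29 to 6.29, adjusted p = 1). With HetTP libraries 2 and 3 left out, the values were 0.86 for Cyp51, 1.01 for Hmgcs1 and -0.62 for Sqle, and 3 of the 8 were below 0.

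Whether the population difference depended on genotype was tested as the TP over TN log2 fold change in homozygous minus that in heterozygous cells. None of the 8 genes passed, where 0.122% of 10687 genes were called, 0.0749% higher and 0.0468% lower, and 9.28% had an unadjusted p under 0.05. The difference was -2.04 (95% interval -3.77 to -0.30, adjusted p = 0.398) for Hmgcs1 and -1.10 (95% interval -2.05 to -0.15, adjusted p = 0.41) for Cyp51, the ones whose interval left out 0 before adjustment over all genes. For Sqle it was -0.08 (95% interval -1.19 to 1.04, adjusted p = 1), and for Srebf2 -0.17 (95% interval -0.75 to 0.42, adjusted p = 0.966). Fdft1 was at -0.17 (95% interval -1.39 to 1.06, adjusted p = 0.993), Idi1 at -0.77 (95% interval -2.87 to 1.34, adjusted p = 0.927), Insig1 at 0.59 (95% interval -2.74 to 3.92, adjusted p = 0.989) and Lss at -1.63 (95% interval -5.82 to 2.57, adjusted p = 0.921).

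**Figure D3:**
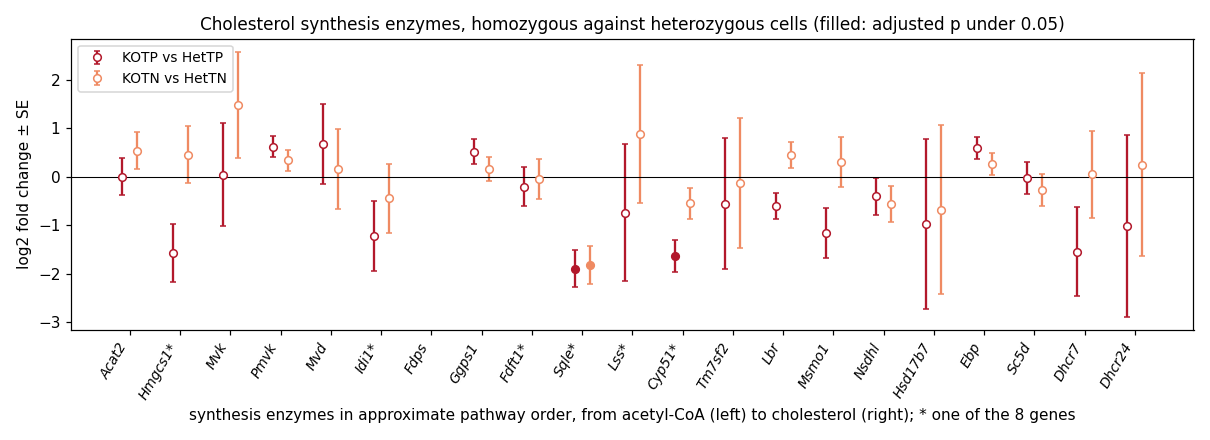
Log2 fold change ± SE of synthesis enzymes in approximate pathway order, for KOTP against HetTP and KOTN against HetTN cells. Filled points have an adjusted p under 0.05: Sqle in both comparisons and Cyp51 in KOTP against HetTP. Fdps has no point because it did not pass the filter on low counts.

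The rest of the pathway was read from lists of genes that include the 8. Of 22 synthesis enzymes 21 were tested, and in KOTP against HetTP cells 2 were lower, Sqle and Cyp51, and none higher, with a median log2 fold change of -0.55. Of the 21, 16 were below 0 and 5 above in that comparison. In KOTN against HetTN cells 1 was lower, Sqle, and the median was 0.16, with 9 below 0 and 12 above. Msmo1, a C4-demethylating enzyme after Cyp51, was at -1.16 (adjusted p = 0.191, SE 0.51) in the tdTomato-positive comparison. It was at 0.31 (adjusted p = 0.799, SE 0.51) in the tdTomato-negative one. Pmvk, at 0.62 (adjusted p = 0.0864, SE 0.22), and Ebp, at 0.59 (adjusted p = 0.122, SE 0.23), went the other way in KOTP against HetTP cells. Of 12 genes of SREBP regulation, Srebf2 alone was called, in KOTP against HetTP cells. Scap, the escort of SREBPs, was at -0.84 (adjusted p = 0.121, SE 0.33) there and at -1.03 (adjusted p = 0.0523, SE 0.33) in KOTN against HetTN cells.

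Of 15 genes of sterol uptake and transport 13 were tested, and none was called in either genotype comparison. Of 10 genes of efflux and esterification 8 were tested, and Nr1h2, which encodes the sterol sensor LXR-beta, was lower in KOTN than in HetTN cells at -0.87 (adjusted p = 0.0234, SE 0.24). In KOTP against HetTP cells Nr1h2 was at -0.74 and narrowly missed the threshold (adjusted p = 0.0514, SE 0.23). Apoe, a lipid carrier, was higher in KOTP than in KOTN cells at 0.37 (adjusted p = 0.00461, SE 0.07), or 1468 ± 144 CPM in KOTP and 1159 ± 108 CPM in KOTN cells (SD, n = 4).

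Of 3 tested genes of oxysterol metabolism, Gpr183, the oxysterol receptor that positions B cells, was higher in homozygous cells, at 1.88 (adjusted p = 9.98e-06, SE 0.20) for KOTP against HetTP and 1.66 (adjusted p = 4.04e-05, SE 0.20) for KOTN against HetTN. It was at 428 ± 13.5 CPM in KOTP and 136 ± 30.7 CPM in HetTP cells, and at 403 ± 16.9 CPM in KOTN and 137 ± 52.8 CPM in HetTN cells (SD, n = 4). Ch25h and Cyp7b1, whose products make its ligand, were at 0 counts in all 16 libraries. Of the isoprenoid branch, Fnta, a farnesyltransferase subunit, at -0.95 (adjusted p = 0.0123, SE 0.23), and Coq2, an enzyme of ubiquinone synthesis, at -0.64 (adjusted p = 0.0381, SE 0.19), were lower in KOTP than in HetTP cells. Among 14 tested genes of fatty acid synthesis, Tecr, an elongation reductase, was higher in KOTP than in HetTP cells at 0.70 (adjusted p = 0.0384, SE 0.21). Scd1, the stearoyl-CoA desaturase, was higher in KOTN than in HetTN cells at 1.89 (adjusted p = 0.00229, SE 0.36). No gene of these 2 lists was called lower in KOTN against HetTN cells.

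**Figure D4:**
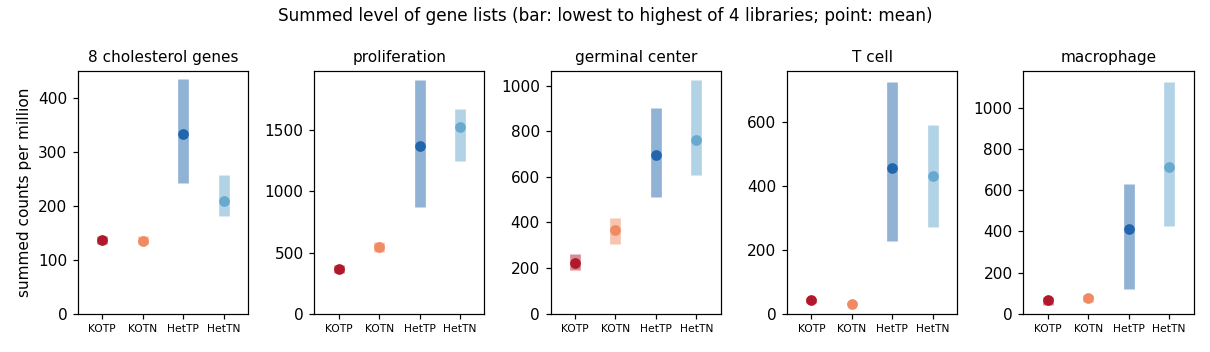
Summed CPM of the 8 cholesterol genes and of 4 marker lists, by group. Bars run from the lowest to the highest of 4 libraries and points are means. The sums of the 8 cholesterol genes and of the proliferation, germinal center, T cell and macrophage lists lay lower in each homozygous group than in its heterozygous counterpart, without overlap.

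Markers of other cells and of cell division moved with genotype. The summed CPM of 8 proliferation genes was 336 to 398 in KOTP and 508 to 583 in KOTN libraries, against 872 to 1907 in HetTP and 1252 to 1677 in HetTN libraries. All 8 were called lower in KOTP against HetTP cells, and 7 in KOTN against HetTN cells. The 6 germinal center genes summed to 190 to 260 CPM in KOTP and 304 to 420 in KOTN, against 510 to 900 in HetTP and 606 to 1023 in HetTN libraries. T cell markers summed to 33.9 to 47.8 CPM in KOTP and 26.3 to 36.5 in KOTN, against 226 to 724 in HetTP and 270 to 591 in HetTN libraries. Of these, Cd4 was at 0 in all libraries. Cd3e and Cd8a were at 0 in both homozygous groups and in some libraries of both heterozygous groups. The largest part of the heterozygous sums was Trac, at 289 ± 165 CPM in HetTP and 286 ± 137 CPM in HetTN cells. That of the homozygous sums was Lck, at 41.8 ± 5.78 CPM in KOTP and 30.7 ± 4.38 CPM in KOTN cells (SD, n = 4). Macrophage markers summed to 45.1 to 82.7 CPM in KOTP and 58.8 to 90.6 in KOTN, against 120 to 633 in HetTP and 427 to 1127 in HetTN libraries. Of 5 plasma cell genes, Irf4 and Jchain were called lower in KOTP against HetTP cells and Jchain in KOTN against HetTN cells, and Cd38, a gene of the sort, was called higher in homozygous cells in both. Summed levels of 3 erythroid genes were 4.25 to 6 CPM in KOTP and 3.11 to 6.19 in KOTN, against 6.86 to 76.8 in HetTP and 9.4 to 72.8 in HetTN libraries. Other lists ran the other way or were mixed. Summed levels of 6 dendritic cell genes were 56.3 to 71.6 CPM in KOTP and 81.1 to 91.6 in KOTN, against 28.8 to 48.7 in HetTP and 20.3 to 43.6 in HetTN libraries, with Flt3 called higher in KOTP against HetTP cells and Itgax in KOTN against HetTN cells. The macrophage marker Adgre1 averaged 37.2 ± 10.3 CPM in KOTP and 10.9 ± 10.6 in HetTP cells, and 40.4 ± 5.46 in KOTN and 12.5 ± 9.34 in HetTN cells (SD, n = 4), and was not called. Of 7 B cell genes, 4 were called higher and 2 lower in each genotype comparison. The part of all these markers in the lower level of the cholesterol genes was not tested.

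The genes whose log2 CPM followed the mean of the 8 standardised genes most closely over the 16 libraries were Ddx1, Mrto4, Irf4, Vps26a and Hdac2, with Pearson r from 0.89 to 0.93 among 7042 genes. These libraries differ by genotype and table. The 8 genes did not share 1 pattern: r with the mean of the others was 0.51 to 0.72 for Cyp51, Hmgcs1, Sqle, Insig1 and Idi1, but 0.16 for Srebf2, 0.07 for Fdft1 and 0.05 for Lss. Over deviations from the 4 group means the leading genes were Pla2g7, Ddx56, Gapdh, Cep95 and Dnajc8, with r from 0.90 to 0.92, and Srebf2 stood at -0.55 with the mean of the other 7.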

How the data were processed

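Messenger RNA of about 1000 sorted cells per library was sequenced with Smart-seq2, per the labels' protocols. Reads were trimmed with Trim Galore, aligned with STAR 2.2.0 to mm10 and counted with featureCounts, per the submitters' processing notes. The strand setting and the handling of read pairs and of reads that map to several places are not given in the sources used here. The authors deposited raw counts over coding sequence in 1 table per genotype, per the file headers. Their scaled columns were used only to read the divisor: deposited counts amounted to 0.369 to 0.419 per unit of the divisor in the homozygous and 1.35 to 1.5 in the heterozygous table, so the tables may have been made differently.

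The 22680 entries per table were joined by symbol, without 4 entries of 2 duplicated names and 1 name without a partner, giving 22675 genes. Genes were filtered with filterByExpr, scaled with TMM (factors 0.909 to 1.12) and analysed in R 4.3.3 with edgeR 4.0.16, by the robust quasi-likelihood test with Benjamini-Hochberg adjustment over all genes and a threshold of 0.05. Genotype comparisons and the difference between genotypes used all 16 libraries (12 residual degrees of freedom), and comparisons within a genotype its 8 libraries (6). Levels and lists are in raw counts per 1000000 of the library total (CPM) without TMM. On that scale the median gene was at a log2 fold change of -0.25 in KOTP against HetTP, so levels show a wider gap there than the tests. Positions and coding lengths came from GENCODE M21. Promoters came from RefSeq (GRCm38.p6).

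Named genes were the 8, the members of each list past the threshold with the smallest p (up to 4), and the 5 most alike in pattern (mean log2 CPM 3 or more). Msmo1, Scap, Pmvk and Ebp were added after their values were seen. Some members of the lists are counted but not reported by name here. The 8 genes and the lists were chosen with earlier results of these data known. Alternatives were other scalings, filters, tests (DESeq2 1.42.0, voom of limma 3.58.1), a replicate block, other sets of libraries and each library left out. The fits were run on simulated data, where most changes put in were missed except in KOTP against KOTN. Some unchanged genes were called in each comparison. A gene not called may therefore still differ, and a call may be false. Library numbers were not used as pairs in the main fits. Same-numbered libraries did not deviate together, but that check cannot exclude that they came from 1 animal. Reads carried no molecular identifiers, so floors of 3 counts cover counting error only. No pair of libraries was identical.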

Additional observations from a re-analysis of the deposited data

Results flagged for a closer look

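Of 32 sets of 4 libraries (8 genes in 4 groups), 2 held a library far from the rest by Dixon's test, where chance gives about 1 in 20. Cyp51 was at 32.5 CPM in HetTN library 4, against 19.8 to 21.9 CPM in the other HetTN libraries. Lss was at 27.0 CPM in HetTP library 2, against 0 to 4.52 CPM in the other HetTP libraries.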

How the results depend on the processing

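Of 892 values of the 8 genes recomputed under alternatives, 868 kept their side of the threshold, 21 lost it and 3 passed it. No value past the threshold changed sign, and 58 values not past it did. In KOTP against HetTP, the genes called of the 8 numbered 2 to 4 under other scalings, filters and tests and 2 to 3 with each library left out (main 3). Comparing the 8 libraries alone without 1 library gave 1 to 4, and leaving out HetTP replicates 2 and 3 gave 1, both chosen after seeing the data. The count fell to 1, Cyp51, without KOTP replicate 2, 3 or 4 in the 8-library comparison, and the cause was not tested. Cyp51 passed in all 27 alternatives (-1.86 to -1.33). Srebf2 passed in 10 of 27, and missed with upper quartile scaling (adjusted p = 0.0875), no filter (0.0645) and limma voom (0.0537). Hmgcs1 passed in 3. In KOTN against HetTN 1 gene, Sqle, was called in every alternative, and in the other comparisons none.

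Counts over all genes moved by over 1.5 times in these cases. KOTP against HetTP gave 722 without KOTP replicate 4, and 718, 661, 630 and 631 with the 8 libraries alone without KOTP replicates 1 to 4 (main 1099). KOTN against HetTN gave 728, 632, 608 and 629 without KOTN replicates 1 to 4, 724 with the 8 libraries alone, and 330, 238, 240 and 247 with those less KOTN replicates 1 to 4 (main 1121). KOTP against KOTN gave 396, 128 and 148 without KOTN replicates 1, 2 and 4, 2 with all 16 libraries, 357 with DESeq2 and 358 with limma voom (main 236). HetTP against HetTN gave 114 with all 16 libraries, 38 with DESeq2 and 1 without a filter (main 0). The difference between genotypes gave 194 with DESeq2, 2 with a replicate block, 6 with library totals alone, 7 with limma voom and 1 to 41 with a library left out (main 13). Library totals alone moved the median log2 fold change of all genes to -0.25 in KOTP against HetTP, and limma voom to 0.19 there and 0.33 in KOTN against HetTN.

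Same-numbered libraries did not deviate together (r from -0.01 to 0.07 in homozygous and 0.00 to 0.09 in heterozygous cells), and 1 of 4 numbers per genotype correlated best with its own. With the replicate block, 3 of the 8 genes were called in KOTP against HetTP, 1 in KOTN against HetTN and 0 in the other comparisons, and 956, 980, 225, 0 and 2 genes of all. The shared spread of the 16-library fit lies between those of the quiet homozygous and the variable heterozygous libraries. Lss, Idi1 and Insig1 had the fewest counts of the 8 in each group, with 81 to 596 counts per group. Sqle in KOTN cells, with 397 counts, and Hmgcs1 in HetTN cells, with 474, lay within that range. How far low counts, rather than spread between libraries, widened the intervals of Lss, Idi1 and Insig1 was not tested.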
